A study of Homo sapiens with 32 samples.

Results

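The genes described here are 7 protein genes counted as the machinery that makes selenocysteine and inserts it into proteins: SEPHS1, SEPHS2, SEPSECS, SECISBP2, EEFSEC, PSTK and TRNAU1AP. They were chosen by name, and are 7 of the 19970 protein-coding genes that the GENCODE 44 annotation places on chromosomes 1 to 22 and X. For each gene, peak summits of 4 transcription factors were collected within 1000 bp of the 5′ end of its gene record. Each summit was given its offset from that end, negative upstream and positive downstream, its value in the deposited list, and its rank in that list.

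Selenocysteine is built on its own tRNA rather than loaded ready-made. A serine is first attached to that tRNA, PSTK phosphorylates it, and SEPSECS exchanges the phosphate for selenium supplied as selenophosphate, which SEPHS2 makes. SECISBP2, bound to a stem-loop in the mRNA called the SECIS element, and EEFSEC, an elongation factor reserved for this tRNA, then bring the amino acid to a UGA codon that would otherwise end translation. The gene of the selenocysteine tRNA is the classic target of ZNF143, a zinc-finger activator that was first described, under the name Staf, from its work on that gene.

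The study used chromatin immunoprecipitation sequencing (ChIP-seq) in HEK293T, an established human embryonic kidney line, in a single clone, HEK_CloneZD29, whose ZNF143 carries an HA-tagged degron. All groups carry this tag, so the untreated cells are not wild type. For each of 4 antibodies, HA (for ZNF143), SP1, NRF1 and YY1, and for a mock precipitation, cells were left untreated or given dTAGV-1 at 50 nM for 30 min, a compound that sends the tagged ZNF143 to degradation. This made 32 samples in 10 groups, with 4 samples in each SP1, NRF1 and YY1 group and 2 in each ZNF143 and mock group.

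The measurements are 4 summit lists, 1 per antibody, with no value per sample or per treatment. Every value below is therefore the authors' single value for a summit, without an error or a test, and no comparison of treated with untreated cells was possible. Per the labels, the ZNF143 and SP1 lists each stand for the untreated and the treated samples of their antibody alike. The value is column 5 of the authors' lists, a −log10 p or −log10 q; nothing in the sources used here says which. It grows with read depth, which is unknown, so values were set side by side only within a list. On chromosomes 1 to 22 and X the ZNF143 list holds 16165 summits, the SP1 list 126181, the NRF1 list 39180 and the YY1 list 106578, with medians of 12.96, 14.05, 6.16 and 15.01.

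All 7 genes held a summit of every factor. In lists of unequal length, none of the 7 genes had a ZNF143 summit in the top 10% of its list, beside 7.12% of all protein-coding genes. Each of the 7 had an SP1, NRF1 or YY1 summit in the top 10% of that factor's list. Over all protein-coding genes the shares by list were 29.3% (SP1), 16.8% (NRF1) and 31.5% (YY1). Within 1000 bp of the 5′ end, 7 of 7 genes held a ZNF143 summit, beside 35.3% of all protein-coding genes. For SP1 the count was again 7 of 7, beside 63.5%, for NRF1 7 of 7, beside 53.1%, and for YY1 7 of 7, beside 62.3%. Summits of all 4 lists occurred together at 32.9% of protein-coding genes. These are counts of promoters chosen by name, with no test of the group against other genes.

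The best summit of a gene is that with the highest value within 1000 bp. Its place in its list differed between the factors, at the 7 genes and over all protein-coding genes. None of the 7 genes had a ZNF143 summit among the top 10% of its list, where 7.12% of all protein-coding genes had one. SP1 placed 5 of 7 genes in its top 10% (SEPHS1, SEPHS2, SECISBP2, EEFSEC and TRNAU1AP), beside 29.3% of all genes. NRF1 placed 4 of 7 there (SEPSECS, SECISBP2, PSTK and TRNAU1AP), beside 16.8%. YY1 placed 7 of 7 there, beside 31.5%. The 10% limit was chosen after the values were seen. Just outside it lay PSTK in the SP1 list, at the top 10.36%, and SEPHS1 in the ZNF143 list, at the top 11.65%. Just inside lay SEPSECS in the YY1 list, at the top 9.12%. Among only those genes that hold a summit of the factor, the share in the top 10% was 20.2% (ZNF143), 46.2% (SP1), 31.7% (NRF1) and 50.6% (YY1). By these shares the factors fell in the same order as by the counts of the 7 genes. The median place of the 7 best ZNF143 summits was the top 33.13% of the list. Over all protein-coding genes with a ZNF143 summit it was the top 37.67%.

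**Figure D1:**
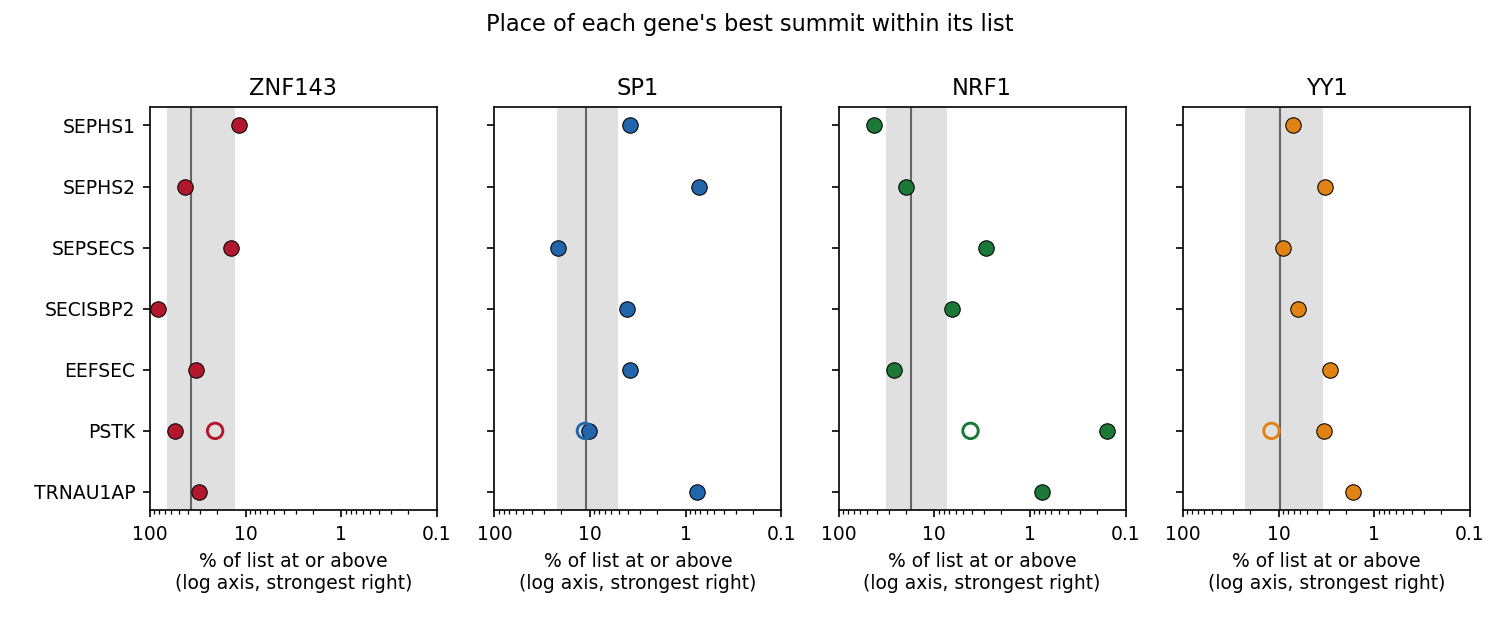
Share of the list (%, log axis, highest values to the right) at or above the best summit of each of the 7 genes, 1 panel per factor. Filled points use the 5′ end of the gene record and open points the canonical 5′ end of PSTK, the line is the median over all protein-coding genes with a summit and the band their quartiles. All ZNF143 points lie left of 10%, and all filled YY1 points lie right of it.

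The median best ZNF143 value over the 7 genes was 31.4, beside 23.6 over the 7044 protein-coding genes with a ZNF143 summit, whose quartiles were 7.64 and 687. The corresponding medians were 589 beside 204 for SP1, 1668 beside 51.1 for NRF1, and 452 beside 145 for YY1. Each of the 7 genes was at or above the gene median for YY1, 6 were for SP1, and 4 were for ZNF143 and for NRF1. PSTK has a canonical start far from the start of its gene record, and with canonical starts the counts against the same medians were 6 for YY1, 5 for SP1, 5 for ZNF143 and 4 for NRF1. The spread among the genes was wide for NRF1, with a highest value 2327 times the lowest (1499 times with canonical starts), and for ZNF143, at 246 times. It was narrower for SP1, at 25.6 times, and for YY1, at 6.60 times (8.82 times with canonical starts). The lists differed in the same way over all protein-coding genes with a summit. Quartiles there were 12.7 and 1059.5 for NRF1, 72.35 and 449.9 for SP1, and 54.1 and 429.6 for YY1, beside those given for ZNF143.

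By the starts of the gene records, a different gene led each list. ZNF143 values fell in the order SEPHS1, SEPSECS, TRNAU1AP, EEFSEC, SEPHS2, PSTK, SECISBP2. SP1 values fell in the order SEPHS2, TRNAU1AP, SEPHS1, EEFSEC, SECISBP2, PSTK, SEPSECS, and NRF1 values in the order PSTK, TRNAU1AP, SEPSECS, SECISBP2, SEPHS2, EEFSEC, SEPHS1. YY1 values fell in the order TRNAU1AP, EEFSEC, SEPHS2, PSTK, SECISBP2, SEPHS1, SEPSECS. SEPHS1, first for ZNF143, was last for NRF1, and SEPSECS, second for ZNF143, was last for SP1 and for YY1. With canonical starts PSTK moved up to a place between SEPSECS and TRNAU1AP for ZNF143, down behind TRNAU1AP and SEPSECS for NRF1 and to last for YY1, and TRNAU1AP then led both the NRF1 and the YY1 order. Without replicate values, neighbours in these orders cannot be set against a spread.

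SEPHS2 and its paralogue SEPHS1 are described first. SEPHS2, which makes selenophosphate and is itself a selenoprotein, lies on the minus strand of chromosome 16 (chr16:30443631-30445874, ENSG00000179918.19 in GENCODE 44 on hg38), with no other gene's 5′ end within 1000 bp. Its best SP1 summit had a value of 1855 at −51, rank 923 and the top 0.732% of the SP1 list, the highest SP1 place of the 7 genes. Its best ZNF143 summit had a value of 17.7 at −143, rank 6980 and the top 43.2%, and a second ZNF143 summit, of 7.64, lay at +172 in the coding sequence. So the SEPHS2 promoter combined a summit near the head of the SP1 list with ZNF143 summits in the middle and lower parts of theirs. The best NRF1 summit, of 38.7 (top 19.6%), lay in the coding sequence at +165, and the best YY1 summit, of 471 (top 3.25%), in a UTR of SEPHS2 at +144. Weaker summits stood at −338 and +917 for NRF1, with 18.7 and 3.76, and at −736 for YY1, with 2.02, close to the lowest value of that list.

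The 200 bases upstream of SEPHS2 hold the interval between its ZNF143 and SP1 summits and are shown for that reason. They are read from hg38 on the minus strand (chr16:30445875-30446074, offsets −200 to −1), 5′ to 3′, with capitals from the ZNF143 summit at −143 to the SP1 summit at −51.
SEPHS2: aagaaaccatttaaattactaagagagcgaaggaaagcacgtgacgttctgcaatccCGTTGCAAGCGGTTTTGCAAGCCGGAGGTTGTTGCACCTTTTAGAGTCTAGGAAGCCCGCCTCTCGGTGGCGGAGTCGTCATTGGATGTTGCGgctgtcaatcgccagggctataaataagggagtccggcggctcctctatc
Neither the ZNF143 motif nor the SP1 motif described below lies within 50 bp of these summits. The YY1 motif ATGGCG lies on both strands within 5.5 bp of the YY1 summit downstream, and the NRF1 motif 8 bp from the NRF1 summit.

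SEPHS1 is the paralogue of SEPHS2 and lacks its selenophosphate-making activity. The gene lies on the minus strand of chromosome 10 (chr10:13317428-13348298, ENSG00000086475.15), and a long noncoding RNA gene, ENSG00000289585, starts on the opposite strand 102 bp upstream of it. SEPHS1 had the highest ZNF143 value of the 7 genes, 1080.4, at rank 1884. That summit lay downstream, at +293, within a UTR of SEPHS1. The peak had 3 further ZNF143 summits, of 64.0 at −65, 10.6 at +940 and 5.11 at −695, and only SP1 at SEPSECS, also with 4, had as many summits in a list at any of the 7 genes. The promoter-proximal one, at −65, was thus not the highest, and with windows of 250 bp it becomes the best ZNF143 summit of the gene.

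SP1 stood 6 bp from that −65 summit, with its best value of 591.5 at −71 (top 3.83%), and had a second summit of 382 at +442. NRF1 was low at SEPHS1: its best value was 7.49 at −260 (top 43.1%), and 85.5% of protein-coding genes with an NRF1 summit had a higher best value. YY1 flanked the start, with 202 at −324 (top 7.17%), 183 at −527 and 130 at +551. Set side by side within each list, the ZNF143 value was higher at SEPHS1, and the SP1, NRF1 and YY1 values were higher at SEPHS2.

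The sequences at both ZNF143 positions of SEPHS1 are shown because the gene leads the ZNF143 order. They are from the minus strand of hg38: offsets −130 to −1 (chr10:13348299-13348428), with capitals from the SP1 summit at −71 to the ZNF143 summit at −65, and offsets +279 to +308 (chr10:13347990-13348019), with the base of the highest ZNF143 summit in capitals.
SEPHS1 upstream: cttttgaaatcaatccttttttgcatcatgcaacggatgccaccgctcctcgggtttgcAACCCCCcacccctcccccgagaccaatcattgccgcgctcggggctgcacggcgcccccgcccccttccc
SEPHS1 highest summit: ggagggcgcaaagcGagccggtaagcggcg
No copy of the ZNF143 motif lay within 50 bp of any of the 4 ZNF143 summits of the gene. The protein-coding genes most like SEPHS1 across the 4 lists, by the largest of the 4 differences in percentile among 6579 genes with all 4 factors, were ZBTB10 (7.30 percentile points), ENSG00000282936 and KIAA0753 (7.73 each, with identical values).

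PSTK and SEPSECS carry the steps that turn the serine on the tRNA into selenocysteine. PSTK, the kinase, is on the plus strand of chromosome 10 (chr10:122954381-122997513, ENSG00000179988.15). Its gene record begins with a noncoding transcript 70 bp from the opposite-strand start of C10orf88, while its canonical protein-coding transcript begins 26020 bp further downstream. Both ends held summits of all 4 factors, and their values differed enough that each is given.

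At the start of the PSTK gene record stood the highest NRF1 value of the 7 genes, 17423 at +8, rank 61 and the top 0.156% of the NRF1 list. Only 0.585% of protein-coding genes with an NRF1 summit had a higher best value. The other factors gathered on the C10orf88 side, in a UTR of that gene: ZNF143 with 10.6 at −162 (top 55.3%), SP1 with 220.1 at −160 (top 10.36%) and YY1 with 452 at −177 (top 3.37%), all 3 within 17 bp. A weaker YY1 summit, of 17.9, lay at +144. These summits can belong to C10orf88 as much as to PSTK, and the lists do not assign them.

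At the canonical start of PSTK the ZNF143 value was higher, 117 at +89 (top 20.8%), 11.1 times that at the record's start. NRF1 was lower there but still high in its list, with 3907 at +26 (top 4.19%). SP1 was close to its value at the other end, with 196 at +200 (top 11.3%), and YY1 was 3.87 times lower, with 117 at +154 (top 11.9%) and a second summit of 33.2 at +470. With the canonical end, YY1 would place 6 of 7 genes in its top 10%, and the median best ZNF143 value of the 7 genes would be 38.8. The median best YY1 value would fall from 452 to 233.

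An NRF1 motif copy lies beside the best NRF1 summit at both starts of PSTK, and the bases around each copy are shown on the plus strand of hg38 with the motif in capitals. The copies lie 42 bp upstream of the summit at the record's start (chr10:122954333-122954361) and 13 bp upstream of it at the canonical start (chr10:122980400-122980428), the latter in a UTR of PSTK.
PSTK record start: accagagacaCGCATGCGCatgtgccagc
PSTK canonical start: cggagacgctGCGCGTGCGcgcagggcag
The copy at the record's start reads on the minus strand relative to PSTK and the copy at the canonical start on the plus strand.

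SEPSECS, the synthase, is on the minus strand of chromosome 4 (chr4:25120014-25160550, ENSG00000109618.13), in a head-to-head arrangement with PI4K2B, which starts 113 bp upstream, and with the noncoding SEPSECS-AS1, which starts 91 bp upstream. It had the second ZNF143 value of the 7 genes, 541 at +104 (rank 2275, top 14.1%), in a UTR of SEPSECS and 3 bp downstream of the canonical start. An SP1 summit of 71.5 lay on the same base. SP1 itself was low here: its best value, 72.4 at −142 (top 21.6%), was the lowest of the 7 genes and lay in a UTR of PI4K2B. Further SP1 summits had 22.6 at −887 and 10.1 at +809.

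NRF1 stood between the starts of SEPSECS and PI4K2B, with 5741 at −11 (rank 1139, top 2.91%), and a weak summit of 3.04 at +873. The best YY1 summit, of 156 at +228 (top 9.12%), lay in the coding sequence and was the lowest YY1 best value of the 7 genes at gene-record starts, followed by 20.1 at −222 and 6.46 at −891. PSTK and SEPSECS thus shared a high NRF1 summit within 11 bp of the 5′ end of the gene record, and both had their upstream side in common with a neighbour on the opposite strand.

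EEFSEC and SECISBP2 act at the ribosome. EEFSEC is on the plus strand of chromosome 3 (chr3:128153481-128408646, ENSG00000132394.11) and overlaps the start of the opposite-strand RUVBL1, whose 5′ end lies 433 bp inside EEFSEC. Its 4 best summits were packed into 30 bp, the shortest span of the 7 genes: NRF1 with 18.8 at −88 (top 26.1%), SP1 with 589 at −82 (top 3.85%), ZNF143 with 31.4 at −70 (top 33.1%) and YY1 with 535 at −58 (top 2.92%). All 4 lie in a UTR of RUVBL1, so they cannot be told apart as summits of one gene or the other. A second NRF1 summit, of 7.91, lay at +234.

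The bases from the NRF1 summit of EEFSEC to the base before the YY1 summit are shown because 4 factors peak over them, on the plus strand of hg38 (chr3:128153393-128153422, offsets −88 to −59), with capitals from the NRF1 to the ZNF143 summit.
EEFSEC: AACGGGTGTGCACAGCGCGccggttacggg
A copy of the SP1 motif lies 24.5 bp upstream of the SP1 summit, just outside the bases shown. No copy of the ZNF143, NRF1 or YY1 motif lay within 50 bp of these 4 summits.

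SECISBP2, the SECIS-binding protein, is on the plus strand of chromosome 9 (chr9:89318500-89359663, ENSG00000187742.15), with no other gene's 5′ end within 1000 bp. It had the lowest ZNF143 value of the 7 genes, 4.40 at +4 (rank 13300, top 82.3%), and a second ZNF143 summit of 2.79 at +584. Among protein-coding genes with a ZNF143 summit, 88.3% had a higher best value. The gene was not low for the other factors: SP1 had 557 at −16 (top 4.12%) and 436 at +489, NRF1 had 1668 at −91 (top 6.51%), and YY1 had 233 at +100 (top 6.26%) and 151 at +520. Minor summits stood at −736 for SP1, with 8.58, and at −786 for NRF1, with 3.55. SECISBP2 was last of the 7 genes for ZNF143 and in the top 10% of each of the other 3 lists.

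TRNAU1AP, also called SECp43, is an RNA-binding protein that associates with the selenocysteine tRNA. Its gene is on the plus strand of chromosome 1 (chr1:28553085-28578545, ENSG00000180098.9), with no neighbouring 5′ end within 1000 bp. It was first or second of the 7 genes in 3 lists: YY1 with 1030.2 at +43 (top 1.69%), SP1 with 1810.02 at −159 (rank 964, top 0.764%) and NRF1 with 11228 at −100 (rank 296, top 0.756%). Its ZNF143 value was 38.8 at −150 (rank 4936, top 30.5%). A second YY1 summit, of 175, lay at −446. TRNAU1AP and SECISBP2 were the 2 of the 7 genes in the top 10% of 3 lists, and each of the other 5 was in the top 10% of 2 lists. The share of all protein-coding genes in the top 10% of 2 or 3 lists is not given here, so this only describes the 7 genes. At its canonical start PSTK would be in the top 10% of the NRF1 list alone.

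The 200 bases upstream of TRNAU1AP are shown because the summits of SP1, ZNF143 and NRF1 fall within 59 bp of each other there. They are read on the plus strand of hg38 (chr1:28552885-28553084, offsets −200 to −1), with capitals from the SP1 summit at −159 to the NRF1 summit at −100.
TRNAU1AP: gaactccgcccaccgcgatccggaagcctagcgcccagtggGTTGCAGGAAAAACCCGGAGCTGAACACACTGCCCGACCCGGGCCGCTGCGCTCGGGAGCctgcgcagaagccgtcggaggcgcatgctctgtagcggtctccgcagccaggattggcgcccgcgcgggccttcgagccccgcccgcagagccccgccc
A copy of the SP1 motif on the minus strand lies 33.5 bp from the SP1 summit and 42.5 bp from the ZNF143 summit. The ATGGCG motif also lies within 50 bp of the YY1 summit of this gene.

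**Figure D2:**
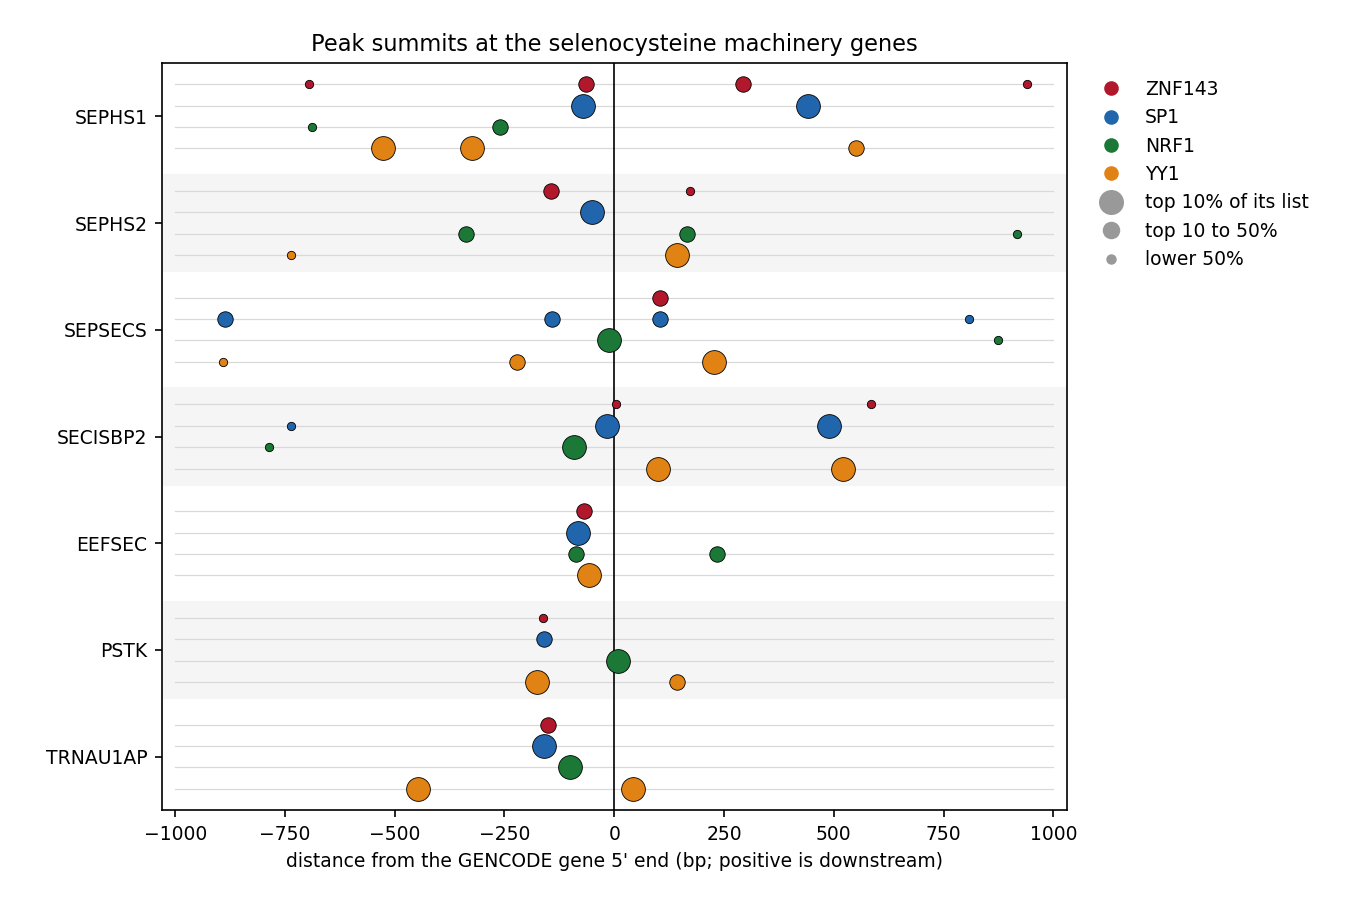
Position of every summit within 1000 bp of the 5′ end of the gene record (bp, positive downstream) for the 7 genes, with 1 row per factor and point size for the summit's place in its list. The 4 factors stack within 30 bp at EEFSEC, while the ZNF143 summits of SEPHS1 spread from −695 to +940.

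Across the 7 genes the lists held 12 ZNF143, 13 SP1, 13 NRF1 and 15 YY1 summits. The mean number per gene was 1.71 for ZNF143, beside 1.26 over all protein-coding genes with a summit, and 1.86 beside 1.63 for SP1, 1.86 beside 1.62 for NRF1 and 2.14 beside 1.84 for YY1. From the gene-record starts, every best SP1 summit lay upstream, from −160 to −16. Over all protein-coding genes with an SP1 summit the median offset of the best summit was −29, with quartiles of −109 and +118. Best ZNF143 summits lay upstream at 4 genes and downstream at 3, from −162 to +293, best NRF1 summits upstream at 5 and downstream at 2, and best YY1 summits upstream at 3 and downstream at 4. The median offsets over all protein-coding genes with a summit were −11 for ZNF143, −19 for NRF1 and +80 for YY1. From canonical starts, best summits lay upstream at 6 genes for SP1, 3 for ZNF143, 5 for NRF1 and 2 for YY1.

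The factor found nearest to the best ZNF143 summit was SP1 at 6 of the 7 genes, and at EEFSEC SP1 and YY1 were equally near. At the canonical start of PSTK it was NRF1, at 63 bp, with YY1 at 65 bp and SP1 at 111 bp. The SP1 list is also the longest of the 4. The nearest SP1 summit lay 0 bp away at SEPSECS, 2 bp at PSTK, 9 bp at TRNAU1AP, 12 bp at EEFSEC and 20 bp at SECISBP2, but 92 bp away at SEPHS2 and 149 bp at SEPHS1. The median was 12 bp, beside 56 bp over 7044 genes with a ZNF143 summit, and 5 of 7 genes had SP1 within 50 bp, beside 47.3% of those genes. With canonical starts the median was 20 bp and the count 4 of 7. The median distance was 115 bp to the nearest NRF1 summit, the same as over those genes, and 124 bp to the nearest YY1 summit, beside 62 bp. NRF1 lay within 50 bp of the ZNF143 summit at 2 genes, EEFSEC and TRNAU1AP, beside 26.8%, and YY1 at 2 genes, EEFSEC and PSTK, beside 42.9%, or at EEFSEC alone with canonical starts. The span of the 4 best summits had a median of 202 bp, beside 253 bp over 6579 genes, and ran from 30 bp at EEFSEC to 617 bp at SEPHS1.

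Short forms of the known motifs were searched on both strands with 0 mismatches within 50 bp of the summits. The ZNF143 motif CCCANNATG lay at none of the 12 ZNF143 summits of the 7 genes, beside 6.63% of all ZNF143 summits, and ACTACAA, the other ZNF143 motif, also at none, beside 4.09%. The SP1 motif GGGCGG lay at 4 of 7 best SP1 summits (SEPSECS, SECISBP2, EEFSEC and TRNAU1AP), beside 10.0% of all SP1 summits, and at 3 of 7 best ZNF143 summits (SECISBP2, EEFSEC and TRNAU1AP), beside 20.6% of all ZNF143 summits. The NRF1 motif GCGCNTGCG lay at 3 of 7 best NRF1 summits (SEPHS2, SECISBP2 and PSTK), beside 7.31%. The YY1 motif ATGGCG lay at 3 of 7 best YY1 summits (SEPHS2, SECISBP2 and TRNAU1AP), beside 7.86%, and the longer AANATGGCG, which contains it, at none, beside 2.52%. These shares are over whole lists, including weaker summits and summits away from gene starts. Counted over all summits of the 7 genes and not only the best, GGGCGG lay at 5 of 13 SP1 and 3 of 12 ZNF143 summits. On the same count GCGCNTGCG lay at 4 of 13 NRF1 summits and ATGGCG at 3 of 15 YY1 summits. No match says only that these letters are not in the window.

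Promoter sequences from RefSeq (GRCh38.p14, 250 bases before to 50 after the gene start) were given for 6 of the 7 genes, all but SEPSECS. CCCANNATG and ACTACAA lay in none of the 6, beside 4.63% and 2.77% of the 35116 promoters in the table. GGGCGG lay in 4 of 6 (SEPHS1, SECISBP2, EEFSEC and TRNAU1AP), beside 45.0%, GCGCNTGCG in 2 of 6 (SECISBP2 and PSTK), beside 7.47%, and ATGGCG in 1 of 6 (TRNAU1AP), beside 10.7%. In the wider window of 500 bp on either side of the gene start, CCCANNATG lay in 1 of the same 6 genes (SEPHS1), beside 14.2% of 19970 genes. GGGCGG lay in 5 of 6, beside 72%, GCGCNTGCG in 4 of 6, beside 14.3%, and ATGGCG in 3 of 6, beside 31.9%. ACTACAA and AANATGGCG lay in none of the 6, beside 8.01% and 7.54%.

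The tRNA gene that these proteins serve had a higher ZNF143 value than any of the 7 genes. TRU-TCA1-1, the selenocysteine tRNA gene, lies on chromosome 19 (chr19:45478601-45478687, 87 bp, RefSeq GRCh38.p14) within ERCC1, whose own 5′ end is 141 bp upstream. The ZNF143 summit there, at −117, lies in a UTR of ERCC1. It can belong to ERCC1 as much as to the tRNA gene, and the list does not assign it. Its value was 6986, at rank 630 and the top 3.90% of the list. That is 6.47 times the value at SEPHS1, 12.9 times that at SEPSECS, 180 times that at TRNAU1AP, 222 times that at EEFSEC and 395.5 times that at SEPHS2. It is 1589 times the value at SECISBP2, and 659.5 times that at PSTK, or 59.5 times with the canonical start of PSTK. The other factors were lower in their lists there: SP1 at the tRNA gene had 373 (top 6.44%), NRF1 11.2 (top 33.7%) and YY1 92.1 (top 14.7%). The SP1 value was below that of 5 of the 7 genes and the YY1 value below that of all 7.

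A copy of the ZNF143 motif lies upstream of the tRNA gene and is shown because of the gene's ZNF143 value. The bases from −250 to −142 are shown on the minus strand of hg38 (chr19:45478829-45478937), with the motif in capitals, its first base at −229.
TRU-TCA1-1: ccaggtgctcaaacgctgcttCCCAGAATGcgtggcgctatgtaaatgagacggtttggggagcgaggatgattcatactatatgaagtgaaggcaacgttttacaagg
The motif lies more than 50 bp from the summit, so it would not have been counted at that summit by the rule used for the 7 genes.

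**Figure D3:**
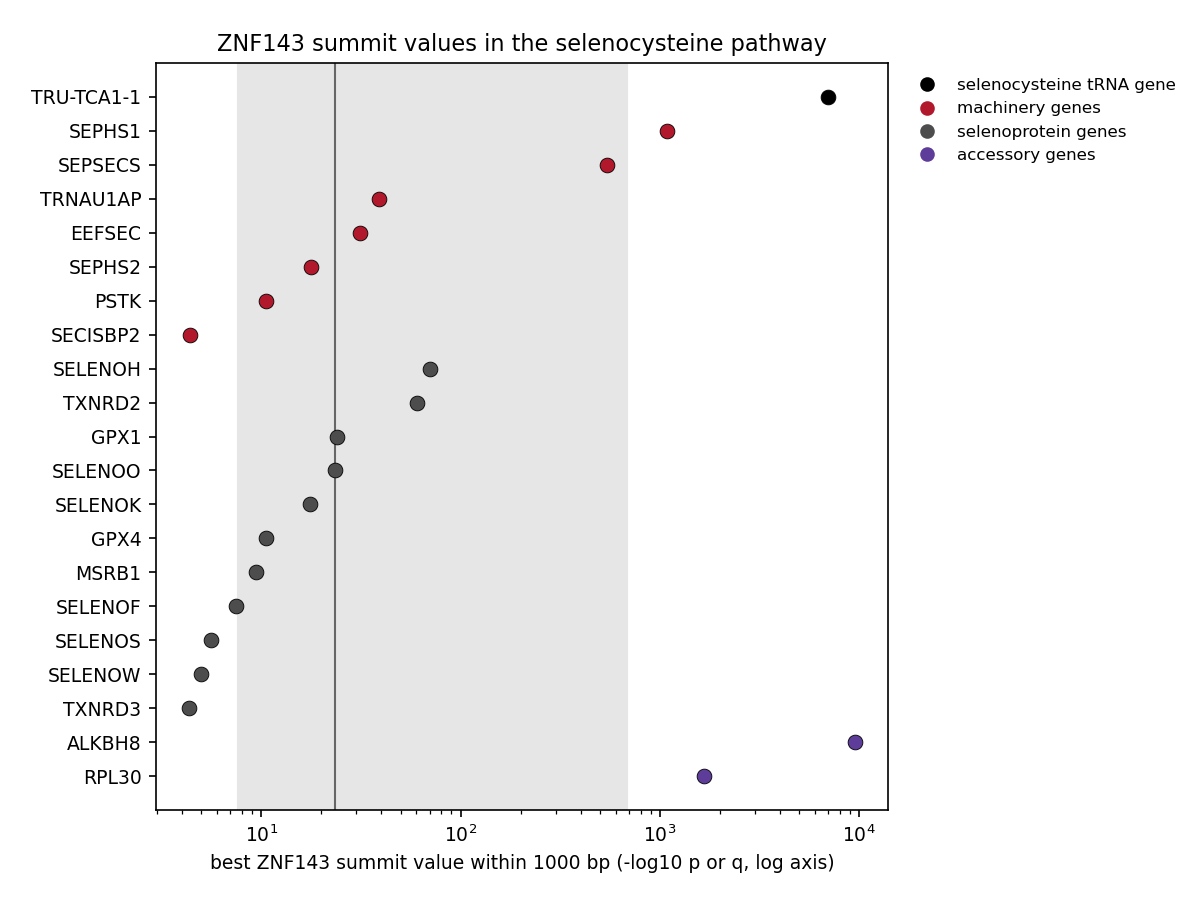
Best ZNF143 value within 1000 bp of the 5′ end (−log10 p or q, log axis) for the selenocysteine tRNA gene, the 7 machinery genes and the selenoprotein and accessory genes that have a ZNF143 summit, all by gene-record starts. The line and band are the median and quartiles over 7044 protein-coding genes with a summit, and only SEPHS1 of the 7 genes lies above the band.

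Selenoproteins, many of them antioxidant or thyroid-hormone enzymes, are the products of the pathway. Of 24 selenoprotein genes other than SEPHS2, 11 (45.8%) had a ZNF143 summit, beside 35.3% of all protein-coding genes. An SP1 summit was held by 14 (58.3%, beside 63.5%), an NRF1 summit by 12 (50%, beside 53.1%) and a YY1 summit by 13 (54.2%, beside 62.3%). Another 10 had none of any list. With canonical starts the counts were 13, 18, 14 and 16, and 6 had none. Shares over all genes are not given here for canonical starts or for genes with no summit. By gene-record starts, those without ZNF143 were GPX2, GPX3, GPX6, DIO1, DIO2, DIO3, TXNRD1, SELENOI, SELENOM, SELENON, SELENOP, SELENOT and SELENOV. Of these, SELENOI had a ZNF143 summit of 3418 (top 7.39%) at −297 from its canonical start, above all 7 machinery genes, and SELENOM one of 3.18 at −164 from its own. By gene-record starts the highest ZNF143 value among the selenoprotein genes was 70.1, at SELENOH, below SEPHS1 and SEPSECS and above the other 5 machinery genes, and the median of the 11 was 10.6, beside 31.4 for the 7 genes. The highest values in the other lists were 1409 for SP1 at SELENOW, 9588 for NRF1 at SELENOT and 1745 for YY1 at SELENOF. With canonical starts SELENOI led for NRF1, with 10225.

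Accessory genes, such as those that charge or modify the tRNA, recycle selenium or bind SECIS elements, were counted as a second group. Of 8, 2 (25%) had a ZNF143 summit, beside 35.3% of all protein-coding genes. ALKBH8, which modifies the wobble base of the tRNA, had 9506 at −10 (top 2.72%). RPL30, a ribosomal protein that can bind the SECIS element, had 1659 at +913 from its gene-record start and −11 from its canonical start. The ALKBH8 value was above that of the tRNA gene and of all 7 machinery genes. All 8 had SP1 and YY1 summits, beside 63.5% and 62.3% of all protein-coding genes, and 6 (75%) an NRF1 summit, beside 53.1%. By gene-record starts their highest values were 363 for SP1 at EIF4A3, 17133 for NRF1 at SARS1, the enzyme that attaches serine to the tRNA, and 2621 for YY1 at ALKBH8. With canonical starts NCL led for SP1, with 491 in place of 5.76.

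**Figure D4:**
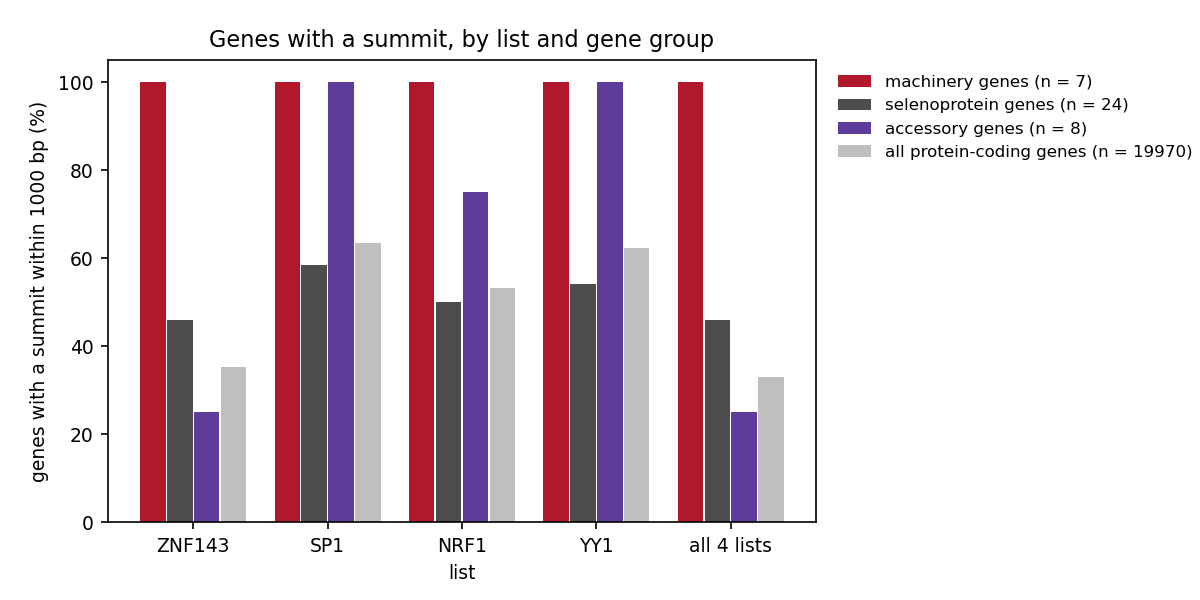
Share of genes (%) with a summit within 1000 bp of the 5′ end, by list, for the 7 machinery genes, 24 selenoprotein genes, 8 accessory genes and all 19970 protein-coding genes. The 7 machinery genes stand at 100% in every list, and the ZNF143 share of all genes is 35.3%.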

How the data were processed

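ChIP-seq of 32 samples in 10 groups was represented by 4 lists of 1-base summits, 1 per antibody, and the mock samples were not analysed here. Column 5 of the deposited lists was read, from its layout and range, as a −log10 p-value or −log10 q-value. The submitters' processing notes name cutadapt, Bowtie2, SAMtools 1.16.1, MACS3, bedtools and hg38, and their parameters are not given in the sources used here. The NRF1 and YY1 lists were tied to their samples by the antibody in the list's name. Whether the samples of a group came from separate cultures is not given.

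Summits on chromosomes 1 to 22 and X were matched to GENCODE 44 5′ ends within 1000 bp, ranked within their list and compared with all 19970 protein-coding genes, in Python 3.11.15 with NumPy 2.4.6, pysam 0.24.0 and matplotlib 3.10.9. All summits lay within hg38 sequences. Motifs were searched on both strands with 0 mismatches, wholly within 50 bp of a summit. Counting was tested on simulated data. No test was made, since no list gives values per sample. Alternatives were windows of 250, 500 and 2000 bp, canonical or any transcript ends, the top 50% of each list, equal list lengths, the summit nearest the start, and wider promoters. The threshold of the top 10%, and its alternative of 20%, were added after seeing the data.

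The 7 genes and the pathway lists were chosen with earlier results of these data known. Named outside the 7 genes were the pathway gene with the highest value per list and group, selenoprotein genes without a ZNF143 summit, the selenocysteine tRNA gene, neighbours with a 5′ end within 1000 bp, and the 3 genes most like the gene with the highest ZNF143 value. RPL30 is named besides because only 2 accessory genes had a ZNF143 summit. NCL was named after its values were seen, because it leads its group for SP1 at canonical starts.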

Additional observations from a re-analysis of the deposited data

How the results depend on the processing

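Depth per sample is unknown, and it limits both the length of each list and its values. Of 69 counts of genes recomputed under other settings, 65 stayed within 1.5 times the reported count and 4 moved. Counts that stayed by this rule could still be lower. Only 5 of the 7 genes held a ZNF143 summit in the top 50% of its list. With windows of 250 bp, 6 of the 7 held an NRF1 summit and 6 a YY1 summit. With lists of equal length, 6 of the 7 held an SP1 summit and 6 an NRF1 summit, while all 7 held ZNF143 and YY1 summits. Among the counts that moved, accessory genes with a ZNF143 summit were 1 in place of 2 with windows of 250 bp and 1 with windows of 500 bp, where the RPL30 summit is lost. Selenoprotein genes with no summit of any list were 6 in place of 10 with canonical starts. With the top 20% of the list in place of the top 10%, a setting chosen after seeing the data, 2 of the 7 genes (SEPHS1 and SEPSECS) had a ZNF143 summit there in place of 0. Of 110 best values, 4 moved: SEPHS1 had a ZNF143 value of 64.0 with windows of 250 bp, and PSTK had 117 for ZNF143, 3907 for NRF1 and 117 for YY1 at its canonical start. The ZNF143 summit nearest the start was not the best one at SEPHS1, where it lay at −65. Within 500 bp of either side of the start, 3 of 6 motif counts moved: CCCANNATG lay in 1 of the 6 genes matched, GCGCNTGCG in 4 and ATGGCG in 3. No paired analysis was possible because the lists give no value per sample, and for the same reason no replicate could be left out.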

Other observations

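The annotation used for the tRNA gene holds a second selenocysteine tRNA entry, TRU-TCA2-1 (chr22:44150657-44150740, 84 bp), and no summit of any of the 4 lists lay within 1000 bp of it. At TRU-TCA1-1 a second YY1 summit, of 77.2, lay at −428.

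At 4 of the 7 machinery genes (SEPHS1, SEPSECS, EEFSEC and PSTK) another gene starts within 1000 bp on the opposite strand, and at SEPHS2, SECISBP2 and TRNAU1AP none does. The share of all protein-coding genes with such a neighbour is not given here, so the count only describes the 7 genes. The lists hold positions only, so a summit at the gene-record starts of SEPHS1, SEPSECS, EEFSEC and PSTK cannot be assigned to either strand's gene. At the canonical start of PSTK, 26020 bp downstream, the summits lie within PSTK and in no other annotated gene.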
